A study of Saccharomyces cerevisiae with 12 samples.

Results

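A set of 10 genes of budding yeast that are under nitrogen catabolite repression was followed across 4 groups of libraries. The genes were picked by gene code out of the 7127 counted in each of 2 tables. The rule uses no measured value, but the list was drawn up with earlier results of these data known. The study is an RNA-seq comparison of 2 chromatin mutants, H2AZ_4KR and Ino80_K929R, each set against a wild type counted in the same table. In H2AZ_4KR, by its name, 4 lysines of H2A.Z, a histone variant placed in nucleosomes beside many promoters, are replaced by arginine, and its wild type is WT_H2AZ. In Ino80_K929R a lysine is replaced by arginine in Ino80, the motor subunit of a complex that moves and edits nucleosomes, and its wild type is WT_Ino80. All 4 groups share the haploid BY4741 background of S288C and mid-log growth in the rich medium YPD, with no treatment protocol, and each has 3 libraries of total RNA. The promoter and the location of either allele, and whether a group is 1 clone, are not given in the sources used here. Nor do they say whether the replicates were separate cultures, so p-values measure the spread between these libraries, which may be technical.

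Nitrogen catabolite repression keeps yeast from making the uptake systems and enzymes for poor nitrogen sources while good ones such as glutamine or ammonia are at hand. It acts through GATA factors, the activators Gln3 and Gat1 and the repressors Dal80 and Gzf3, which bind DNA with the core letters GATAA. When good sources run out, the activators enter the nucleus and permeases and catabolic enzymes for amino acids, allantoin, urea and proline are made. In rich medium most of these genes are kept low.

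The stretches upstream of the genes were read from the R64 genome, the same build as sacCer3, as windows of 300 bases that begin 400 bases before the start codon and end 100 bases short of it. The letters GATAA or their complement TTATC, counted on both strands, occurred at least once in 9 of the 10 windows, against 60.1% of 6020 windows of protein-coding genes. At least 3 matches were present in 7 of the 10, against 7.46% of all windows. DAL2 and DAL5 held 6 each, GAP1, MEP2, DAL80 and DAL1 held 4 each, PUT1 held 3, GLN1 held 2, DUR1,2 held 1 and GDH2 held 0. The longer form GATAAG, which is a subset of these matches, occurred in 8 of the 10 windows and in 13.9% of all windows. The spaced triplets CGGNNNNNNNNNNCCG, the form bound by the proline activator Put3, matched PUT1, with 2 matches, and GDH2, with 1, against 2.03% of all windows. The letters TGACTC, bound by the amino acid synthesis activator Gcn4, matched DAL2, GDH2 and GLN1, against 8.44% of all windows. A match is a description of the letters and not a binding site. Shown are the windows with the most GATAA matches (DAL2 and DAL5), the window with none (GDH2) and those of the genes that were higher in H2AZ_4KR (DUR1,2 and GLN1), 5′ to 3′ on the strand of the gene, with GATAA and TTATC in capitals. They span chrIX:410407-410706 (plus strand) for DAL2, chrX:719266-719565 (plus strand) for DAL5, chrIV:74019-74318 (minus strand) for GDH2, chrII:642311-642610 (minus strand) for DUR1,2 and chrXVI:641808-642107 (plus strand) for GLN1.
DAL2: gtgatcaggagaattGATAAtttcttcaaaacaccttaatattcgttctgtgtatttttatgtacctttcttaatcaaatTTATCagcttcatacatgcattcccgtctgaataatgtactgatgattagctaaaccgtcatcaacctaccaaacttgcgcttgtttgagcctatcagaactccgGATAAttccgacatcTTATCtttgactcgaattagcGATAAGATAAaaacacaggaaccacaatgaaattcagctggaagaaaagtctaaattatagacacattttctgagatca
DAL5: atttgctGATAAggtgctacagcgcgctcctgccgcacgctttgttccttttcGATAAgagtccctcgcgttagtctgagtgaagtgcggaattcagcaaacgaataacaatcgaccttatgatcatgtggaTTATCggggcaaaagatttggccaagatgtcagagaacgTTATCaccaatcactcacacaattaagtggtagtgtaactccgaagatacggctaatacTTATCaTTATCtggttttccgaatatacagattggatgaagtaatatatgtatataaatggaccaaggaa
GDH2: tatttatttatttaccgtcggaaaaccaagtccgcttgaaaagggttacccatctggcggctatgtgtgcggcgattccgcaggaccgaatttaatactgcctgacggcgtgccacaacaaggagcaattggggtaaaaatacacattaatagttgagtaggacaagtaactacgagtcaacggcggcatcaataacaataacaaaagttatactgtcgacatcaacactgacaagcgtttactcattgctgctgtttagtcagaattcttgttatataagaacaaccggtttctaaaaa
DUR1,2: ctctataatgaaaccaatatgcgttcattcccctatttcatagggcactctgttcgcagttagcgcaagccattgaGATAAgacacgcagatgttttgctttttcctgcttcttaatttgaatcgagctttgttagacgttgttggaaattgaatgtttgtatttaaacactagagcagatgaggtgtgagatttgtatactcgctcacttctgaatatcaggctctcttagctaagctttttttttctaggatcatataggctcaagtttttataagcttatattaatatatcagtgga
GLN1: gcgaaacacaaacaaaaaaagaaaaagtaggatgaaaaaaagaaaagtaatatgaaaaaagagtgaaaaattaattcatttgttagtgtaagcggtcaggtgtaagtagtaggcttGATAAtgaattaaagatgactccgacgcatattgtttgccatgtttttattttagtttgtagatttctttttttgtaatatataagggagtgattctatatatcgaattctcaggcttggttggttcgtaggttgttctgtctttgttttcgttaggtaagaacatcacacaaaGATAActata

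The libraries held 17253140 to 20164258 counted fragments. HTZ1, which encodes H2A.Z, was higher in H2AZ_4KR than in WT_H2AZ (log2 fold change 2.15), and INO80 was higher in Ino80_K929R than in WT_Ino80 (2.95). In each mutant the substitution and the raised RNA of its gene therefore cannot be told apart. Of the genes that BY4741 lacks, MET17 had 0 fragments in all 12 libraries and URA3 was at 0.12 CPM or less, where CPM are the counts of a gene scaled to the same total in every library. HIS3, from which BY4741 lacks only an inner stretch, and LYS2, which it keeps, were detected in every library. In WT_Ino80, HIS3 ran from 60.35 to 86.98 CPM, below every library of the other 3 groups, which stood at 116 CPM or more. WT_Ino80 against WT_H2AZ gave a log2 change of -1.08 for HIS3 in edgeR (adjusted p = 0.00162). Ino80_K929R against WT_Ino80 gave 0.81 in edgeR, without overlap but not past the test (adjusted p = 0.722). LEU2, which BY4741 also lacks, had 0 fragments in every WT_H2AZ library. In the other 3 groups it went against the shared strain label. It stood at 117 to 150 CPM in H2AZ_4KR, 121 to 159 CPM in Ino80_K929R and 156 to 183 CPM in WT_Ino80. WT_H2AZ and the other 3 groups therefore differed in a strain marker, LEU2, and WT_Ino80 stood apart in the level of another, HIS3. Because of LEU2, the members, the allantoin cluster and the lists of other genes are also set against WT_Ino80 below. BY4741 is a MATa strain, and all 4 a-specific genes were detected, with STE2 at 257 to 920 CPM, while the 3 alpha-specific genes reached at most 21.6 CPM. Between the wild types, all 3 alpha-specific genes were higher in WT_Ino80 and 3 of the 4 a-specific genes (MFA2, BAR1 and STE2) were lower. By the chi-square per degree of freedom of their counts, WT_Ino80 replicate 1 (262 and 178 against its fellows, which stood at 85.9 from each other) and Ino80_K929R replicate 3 (211 and 144, against 35.2) stood apart, while pairs in the H2AZ table ran from 34.4 to 62.5. Leaving out either library still gave 0 members changed in Ino80_K929R. A 3-fragment floor, which covers counting error only, corresponded to 0.149 to 0.174 CPM.

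In H2AZ_4KR, 6 of the 9 nitrogen genes tested fell and 2 rose against WT_H2AZ. The genes that fell encode the general amino acid permease (GAP1), enzymes and a permease of the allantoin route (DAL1, DAL2 and DAL5), proline oxidase (PUT1) and the glutamate dehydrogenase that releases ammonia (GDH2), and their log2 fold changes ran from -1.45 to -0.66. The genes that rose encode urea amidolyase (DUR1,2, at 0.80) and glutamine synthetase (GLN1, at 0.81). MEP2 did not pass, and DAL80 had too few fragments to test. Rises and falls are those that met both limits stated by the series, an adjusted p under 0.05 (edgeR's quasi-likelihood test with Benjamini-Hochberg adjustment over the whole table) and a change of more than 1.5-fold. By that rule 12.1% of all 6106 genes tested changed, 4.78% up and 7.32% down. The median log2 fold change was -0.90 for the 9 members and -0.01 for all genes. In 8 of the 9 members the 3 libraries of one group all lay outside the range of the other, as in 44.4% of all genes. In bulk RNA, fewer cells that express a gene and less RNA per cell cannot be told apart. Nor can the substitution, the raised HTZ1 RNA and the strain difference seen in LEU2 be told apart in this comparison.

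**Figure D1:**
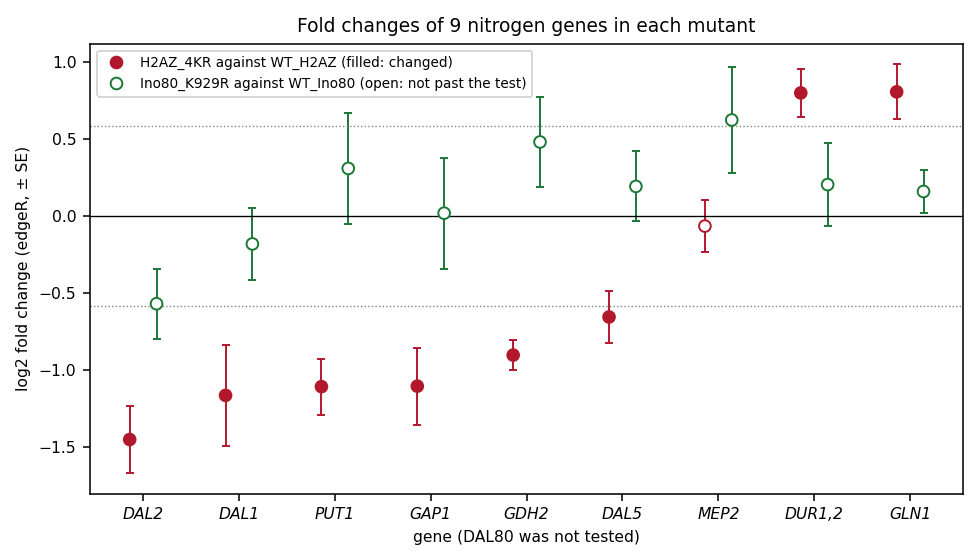
Log2 fold changes of the 9 genes tested, with the standard error from edgeR as bars, in H2AZ_4KR against WT_H2AZ (red, filled where the gene changed) and in Ino80_K929R against WT_Ino80 (green, open where it did not pass). Dotted lines mark a fold of 1.5. In H2AZ_4KR the points run from -1.45 for DAL2 to 0.81 for GLN1, and in Ino80_K929R all 9 are open.

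Among the uptake genes, GAP1 (YKR039W, chromosome XI from 515063 to 516871, plus strand, 1 exon), the permease for all common amino acids, stood at 22.1, 32.5 and 32.7 CPM in H2AZ_4KR and at 68.0, 99.8 and 41.4 CPM in WT_H2AZ. The lowest WT_H2AZ library lay above the highest H2AZ_4KR library, and the wild-type libraries were spread over more than the whole mutant range. GAP1 fell, with a log2 change of -1.11 (SE 0.25, adjusted p = 0.0108), a ratio of 0.464. In 1 fit of all 12 libraries, where the groups share a spread, its adjusted p was 0.0778. MEP2 (YNL142W, chromosome XIV from 357453 to 358952, plus strand), the high-affinity ammonium transporter and sensor, stood at 18.1, 18.4 and 26.5 CPM in H2AZ_4KR and at 23.8, 27.2 and 21.8 CPM in WT_H2AZ. These ranges overlapped, with a log2 change of -0.07 (SE 0.167, adjusted p = 0.809).

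The allantoin genes let yeast use allantoin, a purine breakdown product, by way of allantoate and urea. DAL1 (YIR027C, chromosome IX from 406260 to 407642, minus strand) encodes allantoinase, which opens the allantoin ring. It stood at 1.72, 0.985 and 1.78 CPM in H2AZ_4KR and at 3.32, 4.70 and 3.17 CPM in WT_H2AZ, that is 33, 17 and 31 fragments against 58, 89 and 56. Both groups were low without overlap, and DAL1 fell, with a log2 change of -1.17 (SE 0.326, adjusted p = 0.0267). The call was lost when WT_H2AZ replicate 2 (adjusted p = 0.104), WT_H2AZ replicate 3 (-1.24, adjusted p = 0.0616) or H2AZ_4KR replicate 2 (-0.94, adjusted p = 0.0832) was left out. DAL2 (YIR029W, chromosome IX from 410807 to 411838, plus strand) encodes allantoicase, which splits allantoate. It stood at 4.37, 5.45 and 4.08 CPM in H2AZ_4KR and at 10.6, 16.2 and 15.2 CPM in WT_H2AZ. The lowest wild-type library had almost double the level of the highest mutant library, and DAL2 fell, with a log2 change of -1.45 (SE 0.22, adjusted p = 0.00179), a ratio of 0.365 and the lowest of the 9.

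DAL5 (YJR152W, chromosome X from 719666 to 721297, plus strand), the permease for allantoate and ureidosuccinate, stood at 10.9, 12 and 16.1 CPM in H2AZ_4KR and at 21.3, 24.3 and 22.1 CPM in WT_H2AZ. The ranges did not overlap, and DAL5 fell, with a log2 change of -0.66 (SE 0.169, adjusted p = 0.0185), the smallest called fall among the members. Its adjusted p was 0.0713 in 1 fit of all 12 libraries. Leaving out WT_H2AZ replicate 2 gave 0.0594, leaving out WT_H2AZ replicate 3 gave 0.0686 and leaving out H2AZ_4KR replicate 2 gave 0.0582. Without H2AZ_4KR replicate 1 its log2 fold change of -0.55 was under the fold limit. DUR1,2 (YBR208C, chromosome II from 636703 to 642210, minus strand) encodes urea amidolyase, which turns urea into ammonia. It stood at 130.5, 84.3 and 125 CPM in H2AZ_4KR and at 67.8, 83.2 and 64.8 CPM in WT_H2AZ. The groups did not overlap, but H2AZ_4KR replicate 2 lay close above the highest wild-type library. DUR1,2 rose, with a log2 change of 0.80 (SE 0.158, adjusted p = 0.00585), a ratio of 1.74, with an adjusted p of 0.061 in 1 fit of all 12 libraries.

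Among the enzymes around glutamate, PUT1 (YLR142W, chromosome XII from 425186 to 426616, plus strand) encodes the mitochondrial proline oxidase that starts the route from proline to glutamate. It stood at 6.91, 10.6 and 9.88 CPM in H2AZ_4KR and at 20.2, 24.7 and 20.1 CPM in WT_H2AZ. The wild-type libraries all lay well above the mutant ones, and PUT1 fell, with a log2 change of -1.11 (SE 0.182, adjusted p = 0.00257). GDH2 (YDL215C, chromosome IV from 70640 to 73918, minus strand) encodes the NAD-dependent glutamate dehydrogenase, which breaks glutamate down to ammonia and 2-oxoglutarate. It stood at 158, 166 and 177 CPM in H2AZ_4KR and at 353, 341 and 337 CPM in WT_H2AZ. Each group was narrow and far from the other, and GDH2 fell, with a log2 change of -0.90 (SE 0.0969, adjusted p = 0.000345), the smallest adjusted p of the 9. GLN1 (YPR035W, chromosome XVI from 642208 to 643320, plus strand) encodes glutamine synthetase, which joins ammonia to glutamate. It stood at 1394, 835 and 1137 CPM in H2AZ_4KR and at 748, 679 and 693 CPM in WT_H2AZ. The groups did not overlap although the mutant libraries were widely spread, and GLN1 rose, with a log2 change of 0.81 (SE 0.179, adjusted p = 0.00974), a ratio of 1.75.

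DAL80 (YKR034W, chromosome XI from 506898 to 507707, plus strand), which encodes a GATA repressor and is itself a nitrogen-repressed gene, was near the floor in every group. It had 0, 7 and 2 fragments in the H2AZ_4KR libraries and 8, 8 and 1 in the WT_H2AZ libraries, and 7, 2 and 7 in the Ino80_K929R libraries and 9, 3 and 4 in the WT_Ino80 libraries. The summed 9, 17, 16 and 16 fragments, in the same order of groups, do not let a difference be seen at this depth, and no fold is given. The gene overlaps YKR033C on the other strand over 407 of its 810 bases, and counting did not use strand, so its few fragments cannot be assigned to 1 strand. The other 9 members overlap no feature of the count tables.

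Levels between genes were compared per length, in TPM, in which counts are also divided by coding length. GLN1 had the highest mean TPM of the 10 in every group, at 899 in H2AZ_4KR, 605 in WT_H2AZ, 397 in Ino80_K929R and 322 in WT_Ino80. GDH2 was next in every group (45.3, 99.95, 73.3 and 47.4 TPM, in the same order), and DAL80 was lowest. DUR1,2 took rank 3 in H2AZ_4KR, at 18.3 TPM, and rank 8 in WT_H2AZ, at 12.4 TPM. It took rank 9 in both groups of the other table, at 7.28 TPM in Ino80_K929R and 5.83 TPM in WT_Ino80.

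DAL1 and DAL2 belong to a run of 6 neighbouring genes on chromosome IX, the allantoin cluster, with DAL4, DCG1, DAL7 and DAL3 as their neighbours. In H2AZ_4KR 4 of the 6 fell, against 7.32% of all genes and 22.0% of genes at a like distance from a chromosome end. DAL3, which encodes the enzyme that releases urea from ureidoglycolate, stood at 1.35, 2.78 and 1.90 CPM in H2AZ_4KR and at 6.82, 5.70 and 3.85 CPM in WT_H2AZ, at a log2 change of -1.30 (SE 0.33, adjusted p = 0.0175). DCG1 stood at 0.832, 1.1 and 1.38 CPM in H2AZ_4KR and at 3.84, 3.27 and 2.72 CPM in WT_H2AZ, at a log2 change of -1.43 (SE 0.329, adjusted p = 0.0116). In both genes the groups did not overlap, at levels under 10 CPM. DAL3 was not called without WT_H2AZ replicate 1 (adjusted p = 0.0602) or H2AZ_4KR replicate 3 (adjusted p = 0.0601). DAL4, the allantoin permease gene between DAL1 and DAL2, had a log2 change of -0.68 (SE 0.352, adjusted p = 0.191), and DAL7, a malate synthase gene, one of 0.00 (SE 0.196, adjusted p = 0.991). DAL4 was low and did not overlap either, at 1.09 to 2.03 CPM in H2AZ_4KR and 2.12 to 3.23 CPM in WT_H2AZ. DAL7 overlaps YIR030W-A over 268 bases. Neighbours on the chromosome thus held values from -1.45 to 0.00 within 1 cluster.

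**Figure D2:**
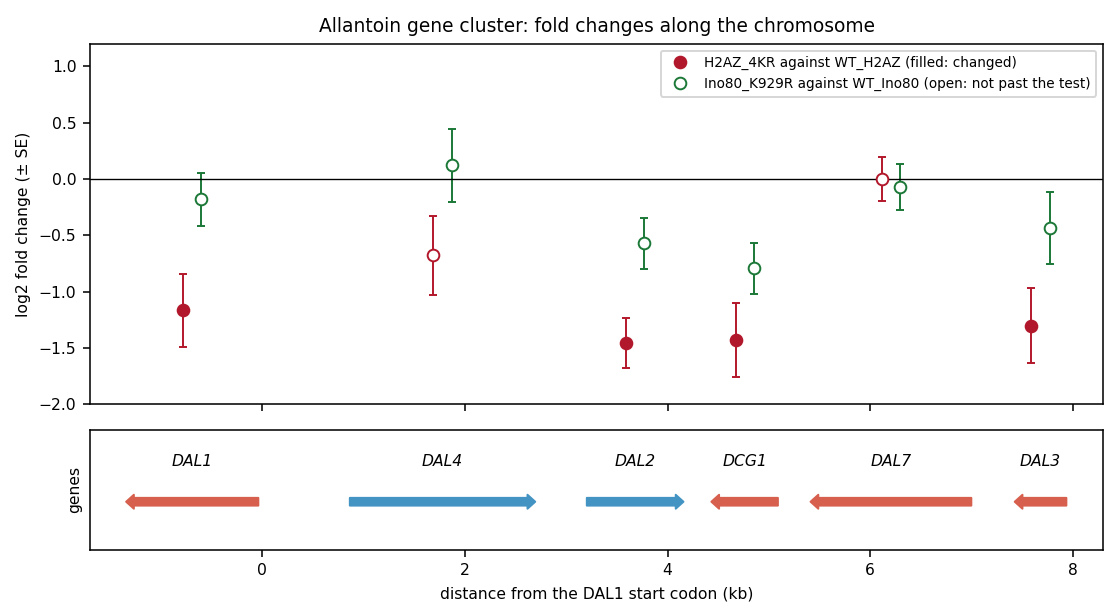
Log2 fold change with its standard error (upper panel) for the 6 genes of the allantoin cluster, placed by distance in kb from the DAL1 start codon, with arrows for their direction (lower panel). Red points are H2AZ_4KR against WT_H2AZ and green points Ino80_K929R against WT_Ino80, filled where the gene changed. DAL1, DAL2, DCG1 and DAL3 are filled in H2AZ_4KR, and DAL7 lies at 0.00.

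The ends of DAL5, DAL2 and DAL1 nearest to a telomere lie 24.5, 28.1 and 32.2 kb from their chromosome ends, and the other members lie 70.6 kb or more away. Among all 209 tested genes that lie 20 to 35 kb from an end, 46 fell in H2AZ_4KR (22.0%), 7 rose and the median log2 fold change was -0.14. The part of chromosome position in the values of these 3 genes was not tested.

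In Ino80_K929R, 0 of the 9 members tested changed against WT_Ino80. By the same rule 0.0162% of 6161 genes changed, which is INO80 alone. An unadjusted p below 0.05 was found for 380 genes (6.17%), of which DAL2 was the 1 member, while DESeq2 called 9 genes and 0 members. DAL2 stood at 17.0, 13.1 and 19.0 CPM in Ino80_K929R and at 25.8, 22.4 and 21.4 CPM in WT_Ino80, without overlap. Its log2 change in edgeR was -0.57 (SE 0.228), with an unadjusted p of 0.0373 and an adjusted p of 0.722. It was the only member without overlap, as were 14.8% of all genes. GAP1 stood at 50.3, 36.3 and 41.7 CPM in Ino80_K929R and at 37.3, 65.5 and 21.1 CPM in WT_Ino80, with a log2 change of 0.02 (SE 0.36, adjusted p = 0.984). MEP2 stood at 33.2, 27.2 and 40.6 CPM in Ino80_K929R and at 10.1, 33.96 and 20.9 CPM in WT_Ino80, with a log2 change of 0.63 (SE 0.344, adjusted p = 0.722). For both uptake genes the ranges overlapped, and the WT_Ino80 libraries were spread more widely than the mutant ones.

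The other members had log2 fold changes between -0.18 and 0.48 in Ino80_K929R. DAL1 stood at 12.9, 16.4 and 12.1 CPM in Ino80_K929R and at 11.6, 18.7 and 15.7 CPM in WT_Ino80 (-0.18, SE 0.234, adjusted p = 0.832). GDH2 stood at 362, 233 and 178 CPM in Ino80_K929R and at 169, 156 and 212 CPM in WT_Ino80 (0.48, SE 0.293, adjusted p = 0.722). Of the mutant libraries of GDH2, replicates 1 and 2 lay above every wild-type library, the first far above, and replicate 3 lay within the wild-type range. PUT1 likewise ran over 27.1, 21.4 and 12.4 CPM in Ino80_K929R, against 19.0, 13.3 and 14.9 CPM in WT_Ino80 (0.31, SE 0.359, adjusted p = 0.809). DUR1,2 stood at 35.01, 38.1 and 55.4 CPM in Ino80_K929R and at 22.4, 53.1 and 33.8 CPM in WT_Ino80 (0.21, SE 0.271, adjusted p = 0.835). GLN1 stood at 431.5, 465 and 523 CPM in Ino80_K929R and at 341, 487 and 404 CPM in WT_Ino80 (0.16, SE 0.14, adjusted p = 0.752). DAL5 stood at 22.6, 20.2 and 27.9 CPM in Ino80_K929R and at 13.2, 22.8 and 24.3 CPM in WT_Ino80 (0.19, SE 0.228, adjusted p = 0.814). In all of these the ranges overlapped, and for 7 of the 9 members the standard error was larger than in the other table.

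The difference between the mutant effects, tested as a contrast in 1 fit of all 12 libraries, passed for 1 of the 9 members, GDH2, against 4.25% of 6235 genes. Its log2 difference, H2AZ_4KR effect minus Ino80_K929R effect, was -1.39 (SE 0.332, adjusted p = 0.0394), from a log2 change of -0.90 in H2AZ_4KR and of 0.48 in Ino80_K929R. This call was lost under a replicate block (adjusted p = 0.0771) and when any 1 library of H2AZ_4KR or WT_H2AZ, or Ino80_K929R replicate 1 (-1.04) or 2, was left out (adjusted p from 0.0782 to 0.101). PUT1 (-1.42, SE 0.43, adjusted p = 0.0705), DAL5 (-0.85, SE 0.284, adjusted p = 0.0929) and DAL2 (-0.89, adjusted p = 0.108) did not pass, although DESeq2 called PUT1 (adjusted p = 0.0175) and DAL5 (adjusted p = 0.0425). PUT1 also passed under total counts (adjusted p = 0.0351), without WT_Ino80 replicate 1 (adjusted p = 0.0435) and without Ino80_K929R replicate 3 (adjusted p = 0.0163). For the other members the difference is not shown, with adjusted p from 0.128 for DAL1 to 0.314 for MEP2. An unadjusted p below 0.05 was found for 7 members, against 24.2% of all genes.

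The wild types themselves differed in these genes. WT_Ino80 against WT_H2AZ, a contrast that is also a comparison of the 2 tables, gave 5 members changed, 2 up and 3 down, against 32.7% of 6235 genes (17.7% up and 15.0% down). DAL1 was higher in WT_Ino80, at 15.3 ± 3.59 CPM (SD, n = 3), than in WT_H2AZ, at 3.73 ± 0.839 CPM (SD, n = 3), a log2 change of 2.09 (SE 0.261, adjusted p = 0.000109). DAL2 was higher too, at 23.2 ± 2.32 CPM in WT_Ino80 and 13.99 ± 2.98 CPM in WT_H2AZ (SD, n = 3; 0.81, adjusted p = 0.0107). DUR1,2 (-0.94, adjusted p = 0.00731), GDH2 (-0.87, adjusted p = 0.0109) and GLN1 (-0.73, adjusted p = 0.00571) were lower in WT_Ino80. GAP1 (-0.69, adjusted p = 0.128), MEP2 (-0.14), DAL5 (-0.12) and PUT1 (-0.37) did not pass, and GAP1 did without WT_Ino80 replicate 2 (-1.07, adjusted p = 0.0291). These values share the WT_H2AZ libraries with those of H2AZ_4KR. Strain, table and any difference in culture cannot be told apart here.

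Across all 12 libraries, the H2AZ_4KR ones lay outside the range of the other 9 for 5 of the 10 genes. DAL1, DAL2 and PUT1 were lower in every H2AZ_4KR library than in any other, as were 9.4% of all genes, and DUR1,2 and GLN1 were higher, as were 1.59%. CPM are scaled by library totals alone. On that scale the median log2 fold change of all genes in H2AZ_4KR against WT_H2AZ was -0.15, so these shares also carry the scaling. The orders of the means differed between the genes. DUR1,2 and GLN1 ran from H2AZ_4KR down through WT_H2AZ to Ino80_K929R and WT_Ino80, where Ino80_K929R and WT_Ino80 overlapped and the other steps did not. For DUR1,2 the step from H2AZ_4KR to WT_H2AZ was narrow, at 84.33 against 83.24 CPM. DAL1 ran from WT_Ino80 and Ino80_K929R, which overlapped, down to WT_H2AZ and then H2AZ_4KR, and DAL2 from WT_Ino80 down to Ino80_K929R and WT_H2AZ, which overlapped, and then H2AZ_4KR. PUT1 was highest in WT_H2AZ, and only H2AZ_4KR stood clear of its neighbour in the order. GAP1, DAL5, GDH2 and DAL80 had no clear step between neighbouring groups. Nor had MEP2, whose lowest Ino80_K929R library, at 27.24 CPM, all but met the highest WT_H2AZ library, at 27.22 CPM, and WT_Ino80 reached 33.96 CPM.

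**Figure D3:**
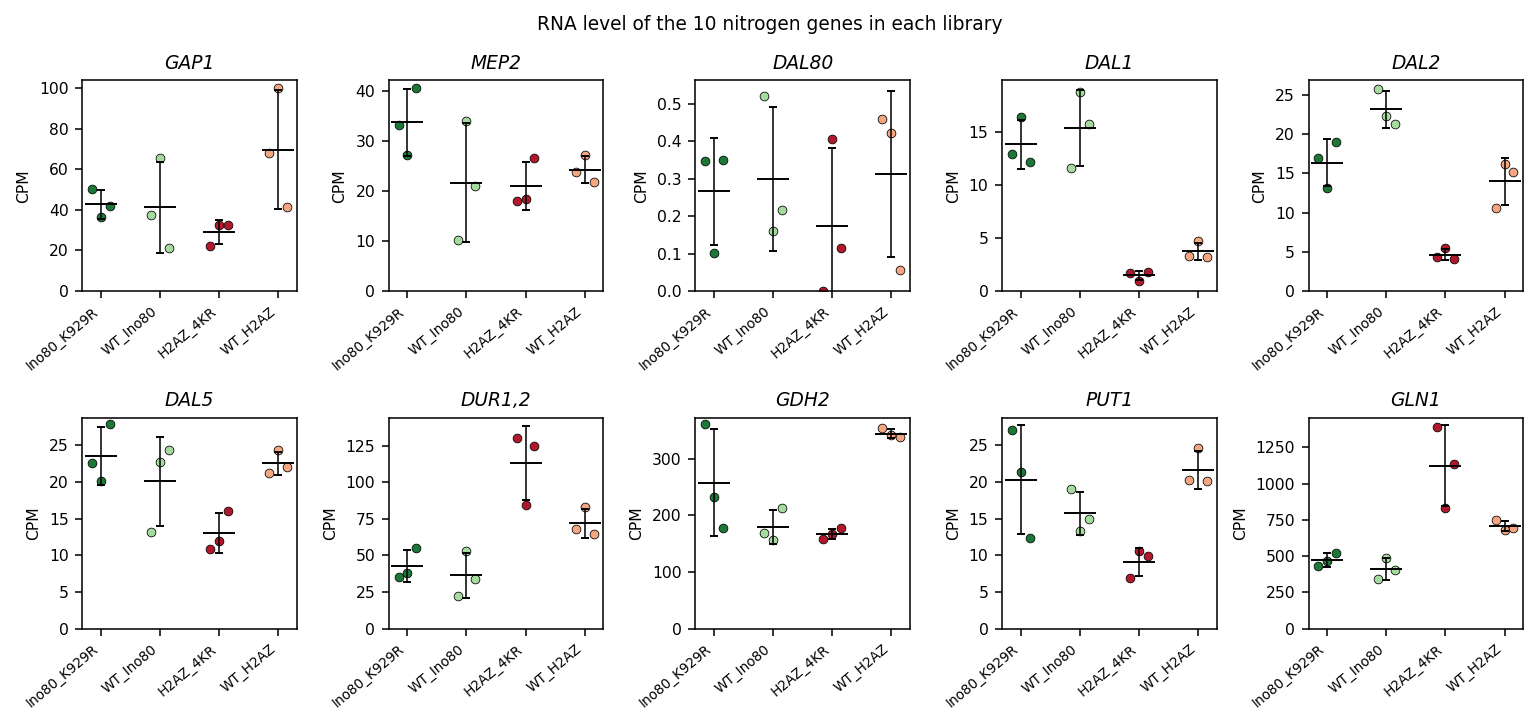
CPM of the 10 genes in each of the 12 libraries (points), with the mean and SD of each group of 3 (lines), for Ino80_K929R, WT_Ino80, H2AZ_4KR and WT_H2AZ, on axes that start at 0. The H2AZ_4KR libraries are the lowest for DAL1, DAL2 and PUT1 and the highest for DUR1,2 and GLN1, while for GDH2 they lie within the range of WT_Ino80.

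Set against WT_Ino80 in place of WT_H2AZ, a comparison added after the data were seen, 4 members were past both limits in H2AZ_4KR, against 26.2% of 6235 genes (11.2% higher and 15.0% lower). DAL1 (-3.26, SE 0.282, adjusted p = 1.03e-05) and DAL2 (-2.27, SE 0.233, adjusted p = 3.67e-05) were lower, and GLN1 (1.53, SE 0.178, adjusted p = 8.34e-05) and DUR1,2 (1.75, SE 0.241, adjusted p = 0.000236) were higher. These 4 had the same direction against both wild types and were further from WT_Ino80 than from WT_H2AZ. The wild types also differed from each other in these 4 genes. Both comparisons use the same H2AZ_4KR libraries, and the one with WT_Ino80 is also a comparison across tables. GDH2 was not past the test, at 167 ± 9.31 CPM in H2AZ_4KR and 179 ± 29.2 CPM in WT_Ino80 (SD, n = 3; -0.04, SE 0.234, adjusted p = 0.918), and lay at 344 ± 8.37 CPM in WT_H2AZ. PUT1 (-0.74, adjusted p = 0.0765), DAL5 (-0.54, adjusted p = 0.0559) and GAP1 (-0.42, adjusted p = 0.372) were below WT_Ino80 without passing, and MEP2 stood at 0.07 (adjusted p = 0.862).

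Beyond the 10 genes, 55 other genes of nitrogen regulation and uptake were listed in 6 groups, of which 53 were tested in H2AZ_4KR. Among them 0 rose, 4 fell and 49 did not pass, with a median log2 fold change of -0.15, beside 8 of 9 members and 12.1% of all genes. At an unadjusted p below 0.05 edgeR had 16 of the 53, against 36.5% of all genes, and DESeq2 called 4. Of these, 6 had an adjusted p under 0.05 but a change within the fold limit, namely GDH1 (-0.58), NPR1 (-0.52), CAR1 (-0.49), UGA3 (-0.46), DIP5 (-0.44) and NPR3 (-0.38). None of the 8 regulators changed (median -0.03), the list that holds the GATA factor genes GLN3, GAT1 and GZF3 but not DAL80. Nor did the 7 genes of permease control (median -0.01) or the 3 of glutamate synthesis (median -0.12). Of 8 permeases 1 fell, UGA4, the permease for 4-aminobutyrate, at 2.34, 3.19 and 4.82 CPM in H2AZ_4KR and 5.44, 8.07 and 7.99 CPM in WT_H2AZ (-0.92, SE 0.298, adjusted p = 0.0486). That call was lost in the fit of 12 libraries (adjusted p = 0.0816) and on leaving out WT_H2AZ replicate 2 or 3, or H2AZ_4KR replicate 1 or 2 (adjusted p from 0.117 to 0.163). Of 13 catabolic enzyme genes tested 2 fell, DAL3 and DCG1 (median -0.20).

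Of 14 genes of amino acid uptake under the SPS sensor, which detects amino acids outside the cell, 1 fell (median -0.18). It was BAP2, a permease gene for branched-chain amino acids, at 508, 483 and 562 CPM in H2AZ_4KR and at 1040, 1101 and 1223 CPM in WT_H2AZ (-0.98, SE 0.129, adjusted p = 0.000922). The direction of BAP2 depended on the wild type, with a log2 change of 0.48 against WT_Ino80 (adjusted p = 0.0221), whose libraries held 293, 459 and 435 CPM. In Ino80_K929R edgeR and DESeq2 each called 0 of the 52 genes tested, with a median log2 change of 0.16 in edgeR. At an unadjusted p below 0.05 edgeR had 7 of the 52, against 6.17% of all genes. 

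Between the wild types, 2 of the 53 genes were higher and 17 lower in WT_Ino80 than in WT_H2AZ, against 17.7% and 15.0% of all genes. The higher ones were DCG1 (2.12, adjusted p = 7.47e-05) and DAL4 (1.28, adjusted p = 0.00776). The lower ones were led by CAR2 and CAR1, of arginine breakdown (-2.80, adjusted p = 5.61e-07, and -2.27, adjusted p = 0.000119), apart from ASP3-3 (-2.72), one of several near-identical copies. They included the GATA activator genes GAT1 (-1.54, adjusted p = 0.00129) and GLN3 (-0.77, adjusted p = 0.0155). In WT_Ino80, GAT1 stood at 6.70, 20.5 and 9.24 CPM and GLN3 at 15.1, 38.2 and 32.4 CPM. Both were widely spread and lowest in replicate 1, the library that stood apart from its fellows. The WT_H2AZ libraries lay above them without overlap, from 28.6 CPM for GAT1 and from 45.25 CPM for GLN3.

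Against WT_Ino80, 11 of the 53 genes were higher in H2AZ_4KR, 4 were lower and 38 did not pass, with a median log2 change of 0.33, against 11.2% higher and 15.0% lower over all genes. The higher ones included CAR2 (3.03, adjusted p = 3.54e-07), OPT2 (1.96, adjusted p = 0.000302), CAR1 (1.78, adjusted p = 0.000529) and GAT1 (1.39, adjusted p = 0.00277), none of which passed against WT_H2AZ, where CAR1 fell short on fold alone (-0.49, adjusted p = 0.00895). The 4 lower ones were UGA4 (-1.06, adjusted p = 0.0153) and 3 genes of the allantoin cluster, DCG1 (-3.55, adjusted p = 4.78e-06), DAL4 (-1.96, adjusted p = 0.000944) and DAL3 (-1.92, adjusted p = 0.00111). With DAL1 and DAL2, 5 of the 6 cluster genes were thus lower in H2AZ_4KR than in WT_Ino80, and DAL7 was not past the test (-0.22, adjusted p = 0.451). These comparisons share the WT_Ino80 libraries with those between the wild types, and they are likewise comparisons across tables.

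**Figure D4:**
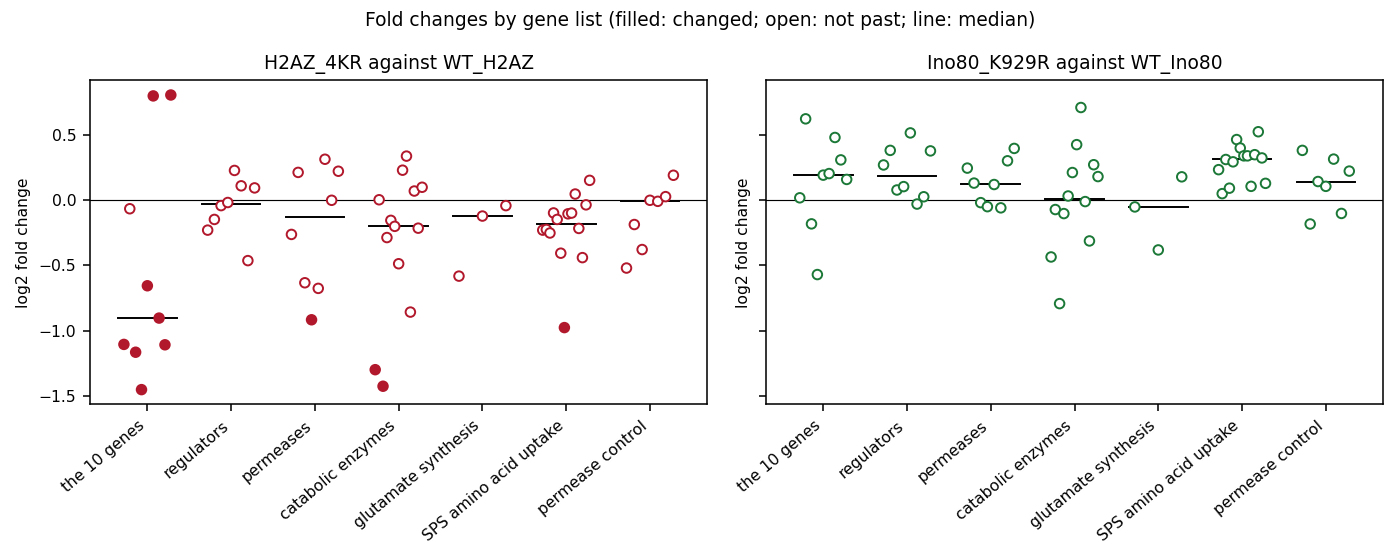
Log2 fold change of each gene of the 10 and of the 6 other lists (points, filled where the gene changed, line at the median of the list), in H2AZ_4KR against WT_H2AZ (left) and in Ino80_K929R against WT_Ino80 (right). In H2AZ_4KR 8 of the 9 members tested are filled and 4 of the 53 genes of the other lists, and in Ino80_K929R all are open.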

How the data were processed

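The deposited tables hold raw counts of fragments per gene, 6 libraries in each, with no normalization by the authors. Reads were aligned with Bowtie 0.12.2 to sacCer3, per the submitters' processing notes, and counted per gene over exons with featureCounts 2.0.1, per the file headers, without strand and without multi-mapping or multi-overlap options, so near-identical and overlapping genes are uncertain. Coordinates of 6026 of 6035 IDs that match a locus tag equal those of the R64 reference, from which sequences were read.

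CPM and TPM were computed from the library totals, and fold changes from edgeR 4.0.16 in R 4.3.3 (quasi-likelihood F test with TMM factors, after filterByExpr at a minimum count of 10, and Benjamini-Hochberg adjustment over all genes tested), in 1 fit of 6 libraries for each mutant and 1 fit of 12 for contrasts across tables. Calls needed an adjusted p below 0.05 and a fold over 1.5. CPM are not TMM-adjusted, so their ratios differ from the fitted folds, and those of H2AZ_4KR against WT_H2AZ lie below them. With total counts in place of TMM the median of all genes in H2AZ_4KR was -0.15 in place of -0.01, with 138 genes up and 671 down, against 292 and 447 with TMM. The scripts were tested on simulated data.

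Members, gene lists and tests were chosen with earlier results of these data known. Besides the members, the genes named were HTZ1 and INO80, the strain and mating-type markers, and of each list up to 4 changed genes with the smallest adjusted p, plus the 2 genes nearest in pattern to each changed member. DAL4 and DAL7 were named as neighbours in the cluster, genes within the fold limit and list genes named for the wild types or against WT_Ino80 were named after their values were seen, and TPM ranks and the comparison with WT_Ino80 were added after the data were seen. Alternatives were DESeq2 1.42.0, RLE factors, total counts, no filter, no fold limit, a replicate block, 1 fit of 12 libraries and leaving out each library. No 2 replicates agreed within sampling noise.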

Additional observations from a re-analysis of the deposited data

Results flagged for a closer look

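The effect on GDH2 differed between the mutants by a log2 value of -1.39 (H2AZ_4KR minus Ino80_K929R, edgeR adjusted p = 0.0394), with the limits given in the report. BAP2 differed by -1.38 (adjusted p = 0.0101), at 483 to 562 CPM in H2AZ_4KR and 483 to 563 CPM in Ino80_K929R, whose own wild types lay apart. It was 1 of 3 genes that passed for this difference among the 53 tested of the other lists, against 4.25% of all genes. NPR1 (-0.91, edgeR adjusted p = 0.0205) and DIP5 (-0.97, edgeR adjusted p = 0.0408) also passed. The mutated genes differed by 2.30 for HTZ1 and by -3.10 for INO80, each higher in the mutant that carries its substitution.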

How the results depend on the processing

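For H2AZ_4KR, RLE factors, total counts, no filter, no fold limit and DESeq2 each called 8 members, as edgeR did. The fit of 12 libraries called 5 members and 346 genes in all, and WT_Ino80 as the wild type 4 members and 1634 genes. With no fold limit 1400 genes passed in place of 739. Leaving out 1 library gave 6 to 8 members and 617 to 742 genes. In Ino80_K929R every setting called 0 members, with 1 gene in all (1 to 1 when 1 library was left out, 9 with DESeq2 and 2 in the fit of 12 libraries). For the difference between the mutants, 1 member and 265 genes passed, against 2 members with total counts, 3 members and 729 genes with DESeq2, and 0 to 2 members and 26 to 594 genes when 1 library was left out. The wild types gave 5 to 6 members and 1733 to 2127 genes when 1 library was left out. The cause of these moved counts was not tested, apart from the fewer samples when a library is left out and the looser rule with no fold limit.

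Same-numbered deviations of mutant and wild type correlated at 0.16, 0.21 and -0.11 in the H2AZ table and at 0.38, -0.39 and -0.13 in the Ino80 table. Differently numbered ones ran from -0.288 to 0.143 in the H2AZ table and from -0.504 to 0.62 in the Ino80 table. Whether replicate numbers pair the samples was not clear from these values. With a replicate block, 8 members and 776 genes passed in H2AZ_4KR, 0 and 1 in Ino80_K929R, 5 and 1928 between the wild types, and 0 members and 32 genes for the difference.

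Values that turned sign were small or not past the test, apart from BAP2 in H2AZ_4KR at 0.48 against WT_Ino80, where MEP2 stood at 0.074. With 1 library left out, MEP2 in H2AZ_4KR ran from -0.27 to 0.028, positive without H2AZ_4KR replicate 1 or 2. In Ino80_K929R, GAP1 ran from -0.30 to 0.41, negative without WT_Ino80 replicate 3 or Ino80_K929R replicate 1 (-0.15), and UGA4 from -0.18 to 0.076, positive without WT_Ino80 replicate 2 (0.066) or Ino80_K929R replicate 2. Between the wild types, MEP2 ran from -0.54 to 0.13 and DAL5 from -0.27 to 0.031, both positive without WT_Ino80 replicate 1, and UGA4 from -0.013 to 0.28, negative without WT_H2AZ replicate 1. Depth limits DAL80 and, among the members tested, DAL1, which had the fewest fragments in the H2AZ table, as well as the low DAL3, DAL4, DCG1 and UGA4.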

Other observations

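The genes nearest to each changed member in pattern were found by the root mean square distance of log2(CPM + 0.5), centred on the mean of each gene, over the 12 libraries, which share depth and table with the members. DUR1,2 and GLN1 both had YDR261C-D, a Ty element gene whose near-identical copies share reads, as their nearest gene (0.215 and 0.192). Next came GLN1 for DUR1,2, at 0.23, and TOS6 for GLN1, at 0.218. GAP1 was nearest to YHR033W (0.296) and to PUT4, the proline permease gene (0.322). DAL5 was nearest to JHD2 (0.121) and DPB11 (0.139), and GDH2 to FAA2 (0.178), which encodes an acyl-CoA synthetase, and YPR027C (0.183). PUT1 was nearest to HHY1 (0.185) and YOR019W (0.196). DAL1 was nearest to LOH1 (0.321) and ADH7 (0.348), and DAL2 to MST28 (0.27) and YIL014C-A (0.28). These distances were larger than those of GDH2 and DAL5, but they were not scaled to the spread of each gene. That spread (root mean square, log2) was 1.27 for DAL1 and 0.846 for DAL2, against 0.477 for GDH2 and 0.416 for DAL5.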
